A study of Mus musculus with 10 samples.

Results

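The 55 genes for the chains of collagens and laminins, 44 for collagens and 11 for laminins, were examined in the mouse prefrontal cortex (PFC). They were chosen by symbol alone, as every row of the count table named Col, a number, a and a number, or named Lama, Lamb or Lamc followed by a number, out of 22000 rows. RNA-seq had been carried out on 5 *Zbtb16* KO and 5 *Zbtb16* WT mice, all 7 weeks old and labelled male, with 1 library per mouse and no treatment. The KO mice were homozygous for luxoid (*lu*), a nonsense point mutation of *Zbtb16*, which encodes a zinc finger transcription factor. The mutation is present in all tissues from conception, and these mice are small with skeletal dysplasia, so that an effect within the cortex and an effect of the altered body cannot be told apart. *Zbtb16* mRNA itself stood at 78.9 ± 7.2 CPM (counts scaled to library size by TMM; SD, n = 5) in the WT group and at 47.4 ± 5.0 CPM (SD, n = 5) in the KO group, lower in each KO mouse but not lost.

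Library totals lay between 30220122 and 51231439 counts, of which the 55 genes together took 0.05038 to 0.06549%. A detection floor of 3 counts equalled 0.05797 to 0.09964 CPM, and it covers counting error only. Markers of cortical neurons and glia (among them *Slc17a7*, *Tbr1*, *Cux2*, *Gad1*, *Gad2*, *Mbp* and *Cx3cr1*) were present in all 10 libraries, and choroid plexus markers summed to no more than 4.66 CPM. KO mouse 3 had 1 count over 4 Y-linked genes against 4376 to 8182 in the other mice, which goes against its label. Values without it are given for *Col4a4*, *Col15a1*, *Col11a2* and *Col27a1*, and it is among the mice left out in turn. The correlations across mice are not given without it alone.

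Collagens are made of 3 chains wound into a triple helix, and laminins are crosses of 1 alpha, 1 beta and 1 gamma chain. In the brain both are found mainly outside the neuropil, in the basement membranes of blood vessels and of the brain surface and in the connective tissue of the meninges. Type IV collagen and laminin build the sheets of a basement membrane, fibrillar collagens give tensile strength around larger vessels and in the meninges, and FACIT collagens sit on the surface of fibrils. A few collagens are products of neurons instead, such as the transmembrane collagen of *Col25a1*.

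In the WT cortex the levels of the 55 genes covered more than 2 orders of magnitude, and basement membrane chains stood near the top. On the scale of CPM per kb of exon, which allows genes of unequal length to be compared, the highest WT level was that of *Col6a1*, a chain of the beaded-filament type VI collagen, at 8.74 ± 1.5 (SD, n = 5). The chains of the common type IV collagen followed, *Col4a2* at 8.04 ± 0.95 and *Col4a1* at 6.62 ± 0.28 CPM per kb. *Lamc1*, the gamma chain shared by most laminins, stood at 4.57 ± 0.23 CPM per kb. The neuronal *Col25a1* was at 4.19 ± 0.53 and the laminin beta chain *Lamb2* at 3.91 ± 0.25 CPM per kb, so that these neighbours in the order lay within their SDs. *Col19a1*, a FACIT collagen known from interneurons, was at 3.36 ± 0.16 CPM per kb, and the fibrillar *Col11a2* was at 2.87 ± 0.31 CPM per kb. On this scale the fibrillar chains typical of connective tissue were lower, with *Col1a2* at 1.26 ± 0.23, *Col1a1* at 0.893 ± 0.13 and *Col3a1* at 0.322 ± 0.067 CPM per kb. When the longest transcript replaced the union of all exons as length, *Col25a1* moved to 8.09 CPM per kb, since its exon union spans 12.9 kb and its longest transcript 6.70 kb. *Col1a2* moved to 2.92 CPM per kb, near *Col11a2* at 3.26, as its exon union spans 12.4 kb and its longest transcript 5.35 kb. *Col1a1* and *Col3a1* stayed lower, at 0.989 and 0.568 CPM per kb. The reads of *Col4a1* and *Col4a2*, which overlap on opposite strands, and of *Col10a1*, *Col18a1*, *Col9a3* and *Lamb3*, which overlap other protein-coding genes, are uncertain because no source used here says whether reads were counted by strand.

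**Figure D1:**
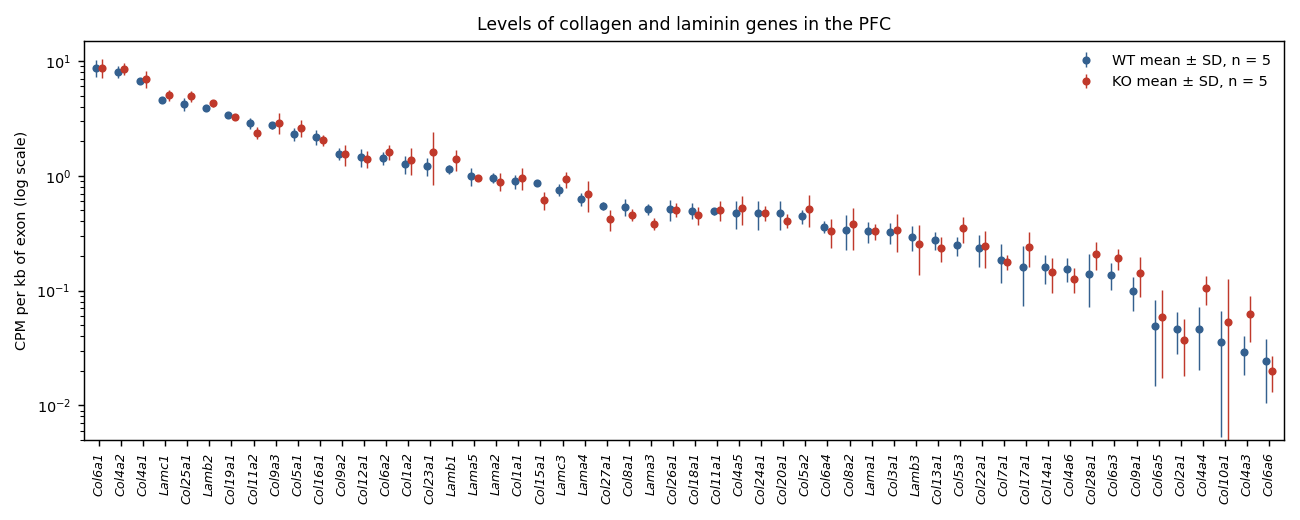
Mean level of 54 of the 55 genes in WT (blue) and KO (red) mice as CPM per kb of exon on a log axis, in the order of the WT mean; bars are SDs over 5 mice, and a bar that reaches 0 runs off the axis. *Col6a1*, *Col4a2* and *Col4a1* stand highest, and *Col4a3* and *Col4a4* stand near the low end, with KO means above WT means.

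KO mice were compared with WT mice in 1 fit over the 14344 genes that passed the filter on low counts, of which 53 were collagen or laminin genes. *Col10a1*, with 0 to 18 counts per mouse, and *Col6a6*, with 4 to 15, were not tested. The fit held genotype and 3 surrogate variables, which are weights given to each mouse to absorb differences among libraries that no label records. Among the 53 genes 1, *Col4a4*, passed an adjusted p of 0.05 by the quasi-likelihood test of edgeR, where 0.844% of all tested genes did. At an unadjusted p under 0.05 there were 9, namely 3 with a higher value in KO mice (*Col4a4*, *Col25a1* and *Col4a3*) and 6 with a lower one (among them *Col15a1*, *Col11a2*, *Col27a1*, *Lama3* and *Col16a1*), where 10.6% of all tested genes reached that p. The ranges of the genotypes were separate for 1 of the 53 genes, *Col15a1*, and for 1.58% of all tested genes. The median log2 fold change (KO minus WT) was -0.08 over the 53 genes and 0.00 over all tested genes, with 36 of the 53 below 0 and 51.9% of all tested genes. Without surrogate variables this median was 0.08, with 24 of the 53 below 0, so no common direction of the collagen and laminin genes is given here. Their summed level was 529.5 to 648.2 CPM in KO mice and 499.6 to 595.0 CPM in WT mice, ranges that overlap. Fewer cells of a type and less RNA per cell cannot be told apart in such bulk tissue.

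**Figure D2:**
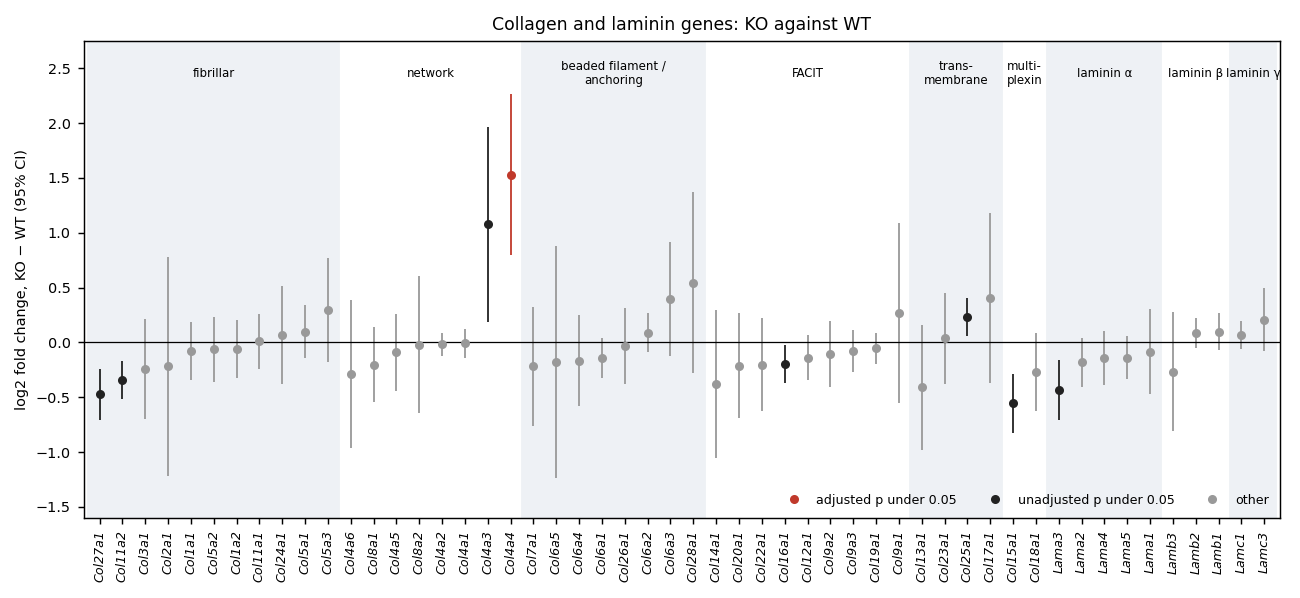
Log2 fold change (KO minus WT) with its 95% confidence interval for 52 of the 53 tested genes, grouped by class of chain. *Col4a4* (red) passed the adjusted threshold, genes with an unadjusted p under 0.05 are black, and intervals are wide for genes of low level such as *Col6a5* and *Col2a1*.

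The type IV collagens held the genes with the greatest log2 fold changes in either direction, *Col4a4* and *Col4a3*, both of low level. Of the 6 type IV genes only *Col4a4* passed the test. The 6 type IV genes lie in 3 pairs, each pair facing away from a shared start region, and the product of each pair is built into common trimers. The *Col4a1*/*Col4a2* trimer is found in all vascular basement membranes, whereas chains of *Col4a3*, *Col4a4* and *Col4a5* form the specialised network of the kidney glomerulus and are scarce in the brain. Sequences of the start regions of the pairs that the results turn on are shown on the plus strand of GRCm38, with the annotated starts of GENCODE M21 and letters from RefSeq promoter windows. For *Col4a1* and *Col4a2* the first bases of both genes overlap at chr8:11312805-11312826, and for *Col4a4* and *Col4a3* the 71 bases between the starts lie at chr1:82586850-82586920. Capitals mark a GC box, spelled GGGCGG, on either strand.
Col4a1/Col4a2: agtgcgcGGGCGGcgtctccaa
Col4a4/Col4a3: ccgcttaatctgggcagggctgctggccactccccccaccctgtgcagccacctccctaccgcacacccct

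The short *Col4a1*/*Col4a2* overlap holds a GC box. The *Col4a4*/*Col4a3* interval, with 69.0% G and C, holds no GGGCGG on either strand. In the third pair, *Col4a6* and *Col4a5* on chromosome X, the starts are 1308 bases apart. Of the 40 genes of the set with a RefSeq promoter window around the start, 62.5% held GGGCGG, against 38.2% of all 27025 genes with a window. CCAAT was found in 35.0% of these 40 genes and in 41.1% of all genes, and TATAAA in 12.5% and 15.7%, counting both strands. The 27025 genes were not limited to the 22000 rows of the count table, so these shares may compare unlike sets. All are matches of letters only.

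*Col4a4* (ENSMUSG00000067158.9, chr1:82448423-82586849, minus strand) was at 1.30, 1.16, 1.39, 1.15 and 0.56 CPM in KO mice 1 to 5 and at 0.37, 0.96, 0.25, 0.39 and 0.48 CPM in WT mice 1 to 5. Of the KO mice 4 lay above all WT mice, KO mouse 5 lay among the WT mice, and WT mouse 2 stood above the other WT mice. These levels rest on 29 to 46 counts per KO mouse and 9 to 46 per WT mouse. *Col4a4* rose in KO mice by 1.53 on the log2 scale (SE 0.34, edgeR adjusted p = 0.0499 after Benjamini-Hochberg correction). The call stood at the threshold. Without surrogate variables the log2 fold change was 1.12 (edgeR adjusted p = 0.441), and on the log2(CPM + 1) scale of limma, which compresses such low levels, it was 0.65. Leaving out 1 mouse at a time, the log2 fold change was 1.40 to 1.70 and the adjusted p passed 0.05 without WT mouse 2 (0.0346) and in none of the other 9 fits; without KO mouse 3 it was 0.158.

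*Col4a3* (ENSMUSG00000079465.8, chr1:82586921-82722059, plus strand), its neighbour and partner, was at 0.73, 0.22, 0.49, 0.77 and 0.89 CPM in KO mice and at 0.13, 0.38, 0.23, 0.39 and 0.34 CPM in WT mice. Of the KO mice 4 lay above all WT mice and KO mouse 2 lay within the WT range. The log2 fold change was 1.08 (SE 0.42, edgeR adjusted p = 0.34). The mouse that was lowest among KO mice differed between both genes, as KO mouse 5 was lowest for *Col4a4* and highest for *Col4a3*. Across the 10 mice their levels had r = 0.44, and r = -0.12 once genotype means were removed (both without significance in permutation tests adjusted over 12 pairs, adjusted p = 0.299 and 0.779).

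Neither gene of the vascular pair passed the test. *Col4a1* (chr8:11198423-11312826) was at 48.1, 52, 45.5, 48.7 and 67.3 CPM in KO mice and at 51.6, 50.0, 51.0, 47.4 and 47.2 CPM in WT mice, with KO mouse 5 above the other 9 mice. Its log2 fold change had a 95% interval of -0.14 to 0.13. *Col4a2* (chr8:11312805-11449287) had an interval of -0.12 to 0.09. The signs of both log2 fold changes turned between settings and no direction is given. *Col4a5* stood at 3.49 ± 0.97 CPM in KO and 3.18 ± 0.87 CPM in WT mice (SD, n = 5 each), and *Col4a6* at 1.01 ± 0.25 and 1.24 ± 0.29 CPM; neither passed the test (adjusted p = 0.907 and 0.822 in edgeR's test). The network-forming *Col8a1* and *Col8a2*, collagens of vessel walls and of the cornea, did not pass it either.

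**Figure D3:**
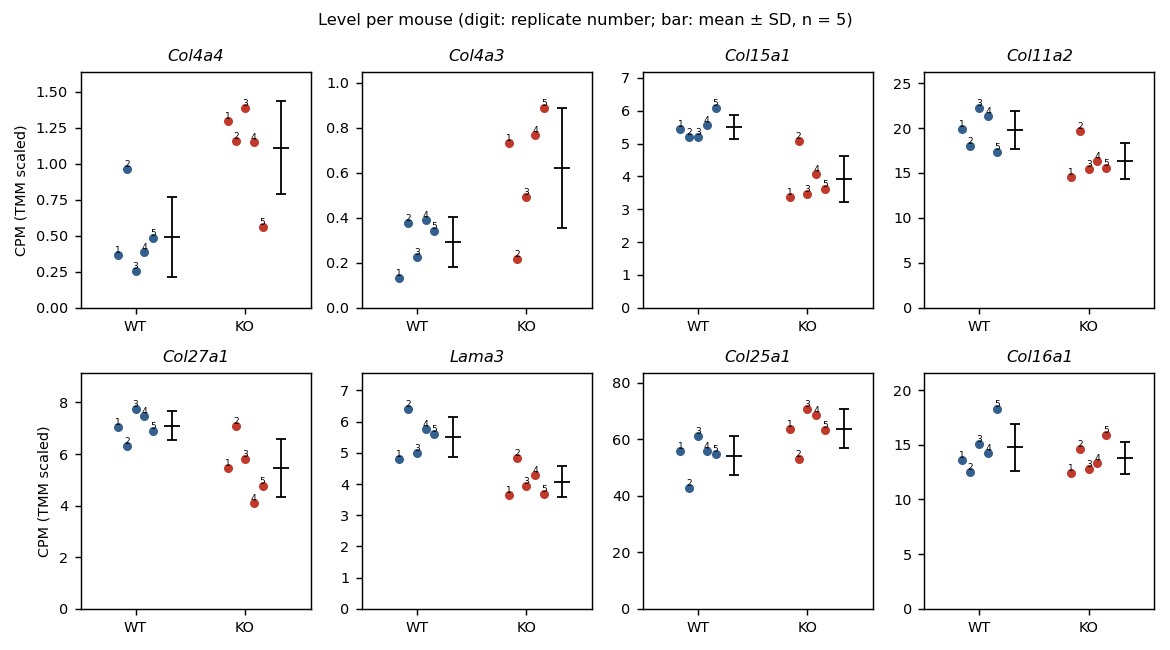
CPM of each mouse for 8 collagen and laminin genes with an unadjusted p under 0.05, WT in blue and KO in red, with the replicate number at each point and the mean ± SD (n = 5) at its side; each axis starts at 0. In *Col15a1* the highest KO mouse, at 5.07 CPM, lies below the lowest WT mouse, at 5.19 CPM, while the genotypes overlap in the other 7 genes.

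*Col15a1*, which encodes a multiplexin linking basement membranes to the fibrils outside them, was the gene whose genotypes did not overlap. On chr4:47208161-47313167, plus strand, it was at 3.36, 5.07, 3.45, 4.07 and 3.61 CPM in KO mice and at 5.45, 5.19, 5.19, 5.56 and 6.08 CPM in WT mice. KO mouse 2 came close to the WT range and the other KO mice were well below it. The log2 fold change was -0.56 (SE 0.13, edgeR adjusted p = 0.0539), which missed the threshold. In 22 alternative fits it lay between -0.61 and -0.42 and passed 0.05 in 3. *Col18a1*, the other multiplexin and the precursor of endostatin, had a log2 fold change of -0.27 (95% interval -0.62 to 0.09) and did not pass.

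Of the fibrillar collagens 2 of 11 had an unadjusted p under 0.05, where 10.6% of all tested genes did. *Col11a2* (chr17:34039437-34066685), a chain of the cartilage collagen XI that is also made in the cortex, was at 14.5, 19.7, 15.4, 16.4 and 15.5 CPM in KO mice and at 19.9, 17.9, 22.2, 21.3 and 17.3 CPM in WT mice. All KO mice but KO mouse 2 were below all WT mice. The log2 fold change was -0.34 (SE 0.08, edgeR adjusted p = 0.0587). *Col27a1* (chr4:63214004-63334991), a fibrillar collagen of cartilage, was at 5.48, 7.07, 5.79, 4.10 and 4.75 CPM in KO mice and at 7.04, 6.30, 7.75, 7.48 and 6.91 CPM in WT mice. Again KO mouse 2 alone lay within the WT range. Its log2 fold change was -0.47 (SE 0.11, edgeR adjusted p = 0.0597). Without KO mouse 2 the adjusted p was 0.0312 for *Col15a1*, 0.0169 for *Col11a2* and 0.033 for *Col27a1*, and without KO mouse 3 it was 0.162, 0.238 and 0.162. In DESeq2, with those surrogate variables, all 3 genes passed at adjusted p-values of 0.0186, 0.0145 and 0.0239, whereas without surrogate variables none did (edgeR adjusted p-values of 0.263, 0.445 and 0.476). The surrogate variables gave large weights to KO mouse 5 (0.874 on the first) and KO mouse 2 (0.726 on the second), and the part of these mice in the calls was not tested beyond leaving each out. Without KO mouse 5 none of these 3 genes passed (edgeR adjusted p-values of 0.0979, 0.0896 and 0.0979). Without KO mouse 2 the calls over all genes also rose, from 121 to 248.

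Among the laminins none of the 11 passed the adjusted threshold. The alpha chain *Lama3* and the beta chain *Lamb3* belong to the laminin that anchors epithelia. *Lama3* was at 3.64, 4.82, 3.95, 4.28 and 3.69 CPM in KO mice and at 4.82, 6.41, 4.99, 5.75 and 5.60 CPM in WT mice, so that the genotypes met at KO mouse 2 and WT mouse 1. Its log2 fold change was -0.44 (SE 0.13, edgeR adjusted p = 0.164), and it stayed between -0.49 and -0.34 in 22 alternative fits without passing in any. *Lamb3* was at 1.69 ± 0.78 CPM in KO and 1.95 ± 0.48 CPM in WT mice (SD, n = 5 each), with an adjusted p over 0.05.

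None of the laminin chains of vessels and of the brain surface passed the test, and their intervals bound the differences only loosely. The 95% interval of the log2 fold change was -0.06 to 0.20 for *Lamc1*, -0.07 to 0.27 for *Lamb1* and -0.05 to 0.22 for *Lamb2*. For the alpha chains it was -0.38 to 0.10 for *Lama4*, the alpha chain of endothelial cells, -0.34 to 0.06 for *Lama5* and -0.41 to 0.04 for *Lama2*, the alpha chain of astrocyte endfeet, of the meninges and of muscle. A change of *Lamc1* of more than 0.20 on the log2 scale thus lies outside its interval in this fit. Without surrogate variables *Lamc1* had a log2 fold change of 0.14 (SE 0.07) in place of 0.07, and no interval is given for that setting. *Lamb1* there had a log2 fold change of 0.29 in place of 0.10, and the sign for *Lama4* turned.

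The connective tissue collagens *Col1a1*, *Col1a2* and *Col3a1* varied between mice within each genotype, and none of them passed the test. *Col1a1* was at 4.77, 8.42, 6.63, 5.34 and 6.34 CPM in KO mice and at 6.14, 4.40, 6.0, 6.09 and 6.68 CPM in WT mice. *Col1a2* was at 13.0, 22.2, 21.9, 12.8 and 16.1 CPM in KO mice and at 16.8, 10.7, 17.2, 16 and 17.2 CPM in WT mice. In both genes KO mouse 2 was highest and WT mouse 2 lowest. *Col3a1* was at 3.34 ± 1.2 CPM in KO and 3.16 ± 0.65 CPM in WT mice (SD, n = 5 each). The edgeR adjusted p-values of these 3 genes were 0.889, 0.923 and 0.756, and the signs of their log2 fold changes turned between settings.

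Chains that share a trimer or, for *Col3a1* and *Col1a1*, are laid down in the same fibrils were compared across the 10 mice on the log2(CPM + 1) scale, for 12 pairs with permutation tests of 100000 resamples, two-sided and adjusted over the pairs. *Col1a1* and *Col1a2*, which form type I collagen, varied together (Pearson r = 0.92, permutation adjusted p = 0.003; Spearman rho = 0.83, permutation adjusted p = 0.0288). Without KO mouse 2 and WT mouse 2, the mice farthest from the median of *Col1a1*, r was 0.84. *Col3a1*, whose type III collagen is a trimer of its own chain alone, followed *Col1a1* as well (r = 0.85, permutation adjusted p = 0.00522; rho = 0.85, permutation adjusted p = 0.0288), with r = 0.88 without KO mice 2 and 4. For *Lamb1* and *Lamc1* r was also 0.85 (permutation adjusted p = 0.0192), but rho was 0.52 (permutation adjusted p = 0.526) and r was 0.20 without KO mice 2 and 5, so this relation rests on those mice. The other 9 pairs did not pass, among them *Col4a1* and *Col4a2* (r = 0.45, permutation adjusted p = 0.299). Meningeal and perivascular fibroblasts make type I and type III collagen, and the summed level of 12 of their markers was read for each mouse. It was 114.2 CPM in KO mouse 2, 55.8 CPM in KO mouse 4, 62.5 CPM in WT mouse 2 and 70.0 to 87.6 CPM in the other mice. The marker *Dcn* was at 28.4 CPM in KO mouse 2, against 6.9 to 11.2 CPM in the other mice. No correlation with this sum was computed, and its part in the correlations above was not tested.

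**Figure D4:**
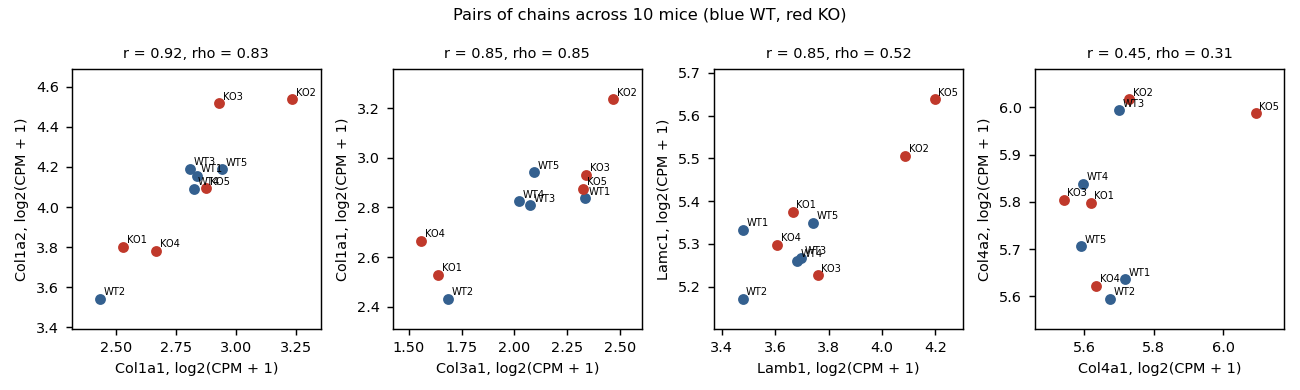
Levels of 4 pairs of chains in each of the 10 mice on the log2(CPM + 1) scale, WT in blue and KO in red. *Col1a1*, *Col1a2* and *Col3a1* are ordered alike over the mice, with KO mouse 2 high and WT mouse 2 low, while for *Lamb1* and *Lamc1* KO mice 2 and 5 lie apart from the other 8.

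Among the remaining classes, none of the genes passed the adjusted threshold. For the counts below, 10.6% of all tested genes had an unadjusted p under 0.05. Of 4 transmembrane collagens *Col25a1*, whose neuronal product binds amyloid fibrils, was at 63.8, 52.9, 70.8, 68.6 and 63.2 CPM in KO mice and at 56.0, 42.8, 61.4, 55.9 and 55 CPM in WT mice. The genotypes overlapped, as KO mouse 2 lay within the WT range and the other KO mice above it, and the log2 fold change was 0.23 (SE 0.08, edgeR adjusted p = 0.276). Of 9 FACIT collagens 1, *Col16a1*, which is made by fibroblasts and muscle cells, had an unadjusted p under 0.05 (log2 fold change -0.20, edgeR adjusted p = 0.388). *Col19a1* was steady over the mice, at 20.8 to 24.2 CPM in KO and 22.0 to 24.3 CPM in WT mice. The 8 tested beaded-filament and anchoring-fibril collagens had no gene with an unadjusted p under 0.05, and *Col6a1* was at 38.1 ± 7.0 CPM in KO and 38.3 ± 6.8 CPM in WT mice (SD, n = 5 each).

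Genes that process, accompany or bind these chains were read from the same fit. Of all tested genes 0.844% passed the adjusted threshold, 10.6% had an unadjusted p under 0.05 and 1.58% had genotypes that did not overlap. These shares stand beside the counts below. Of 26 tested genes of collagen biosynthesis and cross-linking none passed the adjusted threshold and 2 had an unadjusted p under 0.05, with a median log2 fold change of 0.00. These 2 had lower values in KO mice. One was *P3h3*, a prolyl hydroxylase of the family that modifies collagen, at 14.1, 15.2, 14.4, 12.4 and 14.4 CPM in KO mice and at 15.5, 15.4, 17.9, 15.8 and 16.1 CPM in WT mice. Each KO mouse lay below each WT mouse, by a small margin, and the log2 fold change was -0.25 (SE 0.07, edgeR adjusted p = 0.167). *Serpinh1*, the collagen chaperone, was at 17.8 ± 4.2 CPM in KO and 17.3 ± 1.5 CPM in WT mice (SD, n = 5 each). Of 12 other basement membrane components 1 passed. This was *Sparc*, a secreted collagen-binding protein, at 177.7, 191.3, 174.9, 155 and 218.7 CPM in KO mice and at 150.6, 120.9, 135.6, 126.6 and 136.3 CPM in WT mice. Each KO mouse lay above each WT mouse, and *Sparc* rose by 0.37 on the log2 scale (SE 0.06, edgeR adjusted p = 0.0076). *Sparc* lost this call in limma, in the mice with a RIN of 9.5 or above and without WT mouse 3 (edgeR adjusted p = 0.0826), and kept it in the other 19 of 22 alternative fits. In the same list the nidogen *Nid1*, the cross-link between laminin and type IV collagen, and *Hspg2*, which encodes perlecan, had edgeR adjusted p-values of 0.838 and 0.815. None of 16 tested receptors passed, with 5 at an unadjusted p under 0.05 (2 with higher and 3 with lower values in KO mice), and none of 14 matrix proteases and inhibitors passed, with 2 at that p. Among the receptors *Itga6*, a laminin-binding integrin chain, had a log2 fold change of -0.25 (edgeR adjusted p = 0.164).

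Markers of the cells that make these chains gave no gene past the adjusted threshold in this fit. Of all tested genes 10.6% had an unadjusted p under 0.05, the share to set beside the counts below. Summed CPM of 12 endothelial markers was 306.9 to 348.2 in KO and 309.4 to 351.7 in WT mice, with 1 of 12 at an unadjusted p under 0.05. Summed CPM of 11 mural cell markers was 212.8 to 247.1 in KO and 215.7 to 260.6 in WT mice, with none of the 10 tested at that p. Of 11 tested fibroblast markers 1 had an unadjusted p under 0.05, and of 8 astrocyte markers 2 did. Markers of striatal medium spiny neurons summed to 332.1 to 503.1 CPM in KO and 302.3 to 610.4 CPM in WT mice, with 5 of 11 higher in KO mice at an unadjusted p under 0.05. WT mouse 5 had the highest of these sums and the other 4 WT mice lay below the lowest KO mouse. The margin was narrow, with 331.8 CPM in WT mouse 2 and 332.1 CPM in KO mouse 1. The part of these markers in the collagen and laminin values was not tested.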

How the data were processed

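Total RNA from the PFC of 10 mice was made into stranded mRNA libraries and sequenced as paired ends. The authors aligned reads to mm10 with STAR (2.7.1a), dropped secondary and multi-mapped alignments, and assigned the remaining reads to protein-coding exons (Gencode M21) using HTSeq (0.9.1, intersection-strict); the strand setting is not given in the sources used here. The deposited values are these raw counts per gene. Groups, replicate numbers and RIN were taken from the labels.

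Counts were scaled by TMM to CPM. Genotypes were compared with edgeR (4.0.16, R 4.3.3) by the quasi-likelihood test, with genotype plus 3 surrogate variables from sva (3.50.0; log2(CPM + 1), seed 1), with edgeR's filter on low counts and Benjamini-Hochberg adjustment over all 14344 genes at 0.05. Standard errors are the log2 fold change over the root of F. DESeq2 (1.42.0) and limma (3.58.1) were alternatives, beside other covariates, scalings and filters and leaving out each mouse. Pearson r and the permutation tests were computed with numpy (2.4.6), and Spearman rho and ranks with scipy (1.17.1). Positions come from Gencode M21. Scripts were tested on simulated counts. No 2 libraries agreed within sampling noise. The labels do not name separate litters, so p-values measure the spread between these mice.

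Collagen and laminin genes named are those that passed the test or did not overlap, those with the 8 smallest p-values or the 8 highest levels per kb, and 10 common chains, and of the other lists those that passed. Further genes were named to complete a pair, a list or a count after their values were seen. The members and lists were chosen with earlier results of these data known. Some genes are not reported here by name or value.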

Additional observations from a re-analysis of the deposited data

Results flagged for a closer look

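In 4 of 106 groups of 5 mice (53 genes in 2 genotypes) 1 mouse stood far from the others by Dixon's test, whose critical value is 0.71 and which flags about 1 in 20 groups by chance. *Col4a4* in KO mouse 5 was at 0.5603 CPM against 1.151 to 1.387 CPM in the other KO mice, and its log2 fold change without this mouse was 1.56 (adjusted p = 0.0738 in edgeR's test). *Col1a2* in WT mouse 2 was at 10.66 CPM against 16.04 to 17.25 CPM in the other WT mice. *Col22a1*, a FACIT collagen of tissue junctions, was at 3.633 CPM in KO mouse 5 against 1.722 to 2.061 CPM in the other KO mice. *Col6a5*, a type VI collagen chain, was at 1.237 CPM in KO mouse 5 against 0.2541 to 0.5322 CPM. KO mouse 5 thus gave 3 of the 4 values, and its library was also the deepest, with 51231439 counts, and had the lowest RIN, 8.1.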

How the results depend on the processing

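The number of collagen and laminin genes called depended on the model: 1 in edgeR with 3 surrogate variables, with RLE scaling and with no filter on low counts; 0 with no, 1 or 2 surrogate variables, RIN in their place, the replicate number as a block, TMM-scaled CPM for the surrogate variables, limma, or only mice with RIN of 9.5 or above; 3 with robust dispersions; 4 with DESeq2; and 0 to 3 when single mice were left out. The settings with TMM-scaled CPM and robust dispersions were chosen after seeing the data. For *Col4a4* the call was lost in the 8 settings with 0, at adjusted p-values from 0.052 (TMM-scaled CPM) to 0.708 (RIN of 9.5 or above). Over all genes 121 were called, against 30 with no, 34 with 1 and 57 with 2 surrogate variables. This count was 38 with RIN, 24 with the replicate block, 115 with TMM-scaled CPM and 155 with robust dispersions. With RLE scaling it was 123, and with no filter 140. It was 233 with DESeq2, 8 with limma, 1 with RIN of 9.5 or above and 39 to 248 with single mice left out. Of the pathway genes 1 was called, against 0 with limma or RIN of 9.5 or above and 0 to 3 with single mice left out; of the markers 0, against 1 with robust dispersions, 1 with no filter, 2 with DESeq2 and 0 to 5 with single mice left out. The replicate numbers are not shown to pair the mice (correlations of deviations -0.11 to 0.17), so the replicate block is given only as an alternative. Of 461 values of named genes under alternatives 20 lost and 9 gained significance, and 40 turned in sign, all of genes that did not pass in any fit. With no surrogate variables, 1, 2, RIN, the replicate block and RIN of 9.5 or above in turn, the log2 fold change was 0.106, 0.0789, 0.068, 0.105, 0.0939 and 0.112 for *Col1a1*, 0.141, 0.137, 0.135, 0.137, 0.122 and 0.107 for *Col1a2*, and 0.0941, 0.0623, 0.0679, 0.0963, 0.0947 and 0.18 for *Col4a2*. With no surrogate variables, RIN and the replicate block it was 0.0873, 0.0686 and 0.0419 for *Col3a1* (0.00257 with 1 and 0.00866 with 2 surrogate variables), 0.0846, 0.0795 and 0.0705 for *Col4a1* (0.0013 with RIN of 9.5 or above), and 0.16, 0.134 and 0.123 for *Lama4*. With single mice left out it was -0.164 to 0.0174 for *Col1a1*, -0.169 to 0.0422 for *Col1a2*, -0.0391 to 0.0467 for *Col4a1* and -0.0682 to 0.0125 for *Col4a2*. With genotype means removed, r was -0.12 for *Col4a3* and *Col4a4* and 0.12 for *Lama2* and *Lamb2* (-0.07 before). With the longest transcript as length, WT levels per kb moved to 3.26 for *Col11a2*, 8.09 for *Col25a1*, 4.23 for *Lamb2*, 4.96 for *Lamc1*, 4.26 for *Col19a1* and 7.47 for *Col4a1*. That of *Col1a2* moved to 2.92. The cause of these differences was not tested. For *Col4a3* and *Col4a4*, 4 to 46 counts per mouse limit the precision.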
